A study of Homo sapiens with 36 samples.

Results

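The 89 nuclear genes for subunits of the mitochondrial respiratory chain were examined, out of 20033 protein-coding nuclear genes. They were chosen by symbol in the GENCODE annotation of hg38 (NDUFA, NDUFB, NDUFC, NDUFS, NDUFV, UQCR, COX4 to COX8, ATP5F, ATP5M and ATP5P, and SDHA to SDHD, without the NDUFAF assembly factors), a rule that uses no measured value. By symbol, 40 belong to complex I, 4 to complex II, 9 to complex III, 17 to complex IV and 19 to complex V. NDUFA4 carries a complex I symbol although it is now regarded as a subunit of complex IV, and 2 of the genes, NDUFC2-KCTD14 and ATP5MF-PTCD1, are readthrough genes that share starts, and so most of their calls, with NDUFC2 and ATP5MF.

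Complexes I to IV pass electrons from NADH and succinate to oxygen and most of them pump protons out of the mitochondrial matrix, and complex V, the ATP synthase, makes ATP as the protons return. A few subunits of every complex except complex II are encoded on the mitochondrial genome, and all others come from nuclear genes that have to be transcribed together with them. The factors NRF1, GABP of the ETS family and YY1 are known to bind the promoters of many of these nuclear genes, most of which are active in every cell that respires, whereas some subunits have isoforms that heart, skeletal muscle or testis use in their place.

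Binding was measured by ChIP-seq (sequencing of immunoprecipitated chromatin) in untreated cells of A549, a human lung adenocarcinoma line, and BEAS-2B (B2B), an immortalised bronchial epithelial line that is not cancerous. The 36 samples formed 18 groups of 2 replicates, including 4 samples of input chromatin that were not analysed here. Peak lists of RNA polymerase II (pol II), the promoter mark H3K4me3, the mark of active promoters and enhancers H3K27ac, the Mediator subunit Med1 and the AP-1 subunits JunB, Jun and JunD were used in both lines, and lists of the insulator protein CTCF and the cohesin subunit Rad21 in B2B. The authors merged the 2 replicates before they called peaks, so that each of the 16 lists (7 in A549, 9 in B2B) is 1 value per target and line, without replicate error and without a test of any difference between lines.

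The lists held between 8563 peaks (JunB in B2B) and 61225 peaks (CTCF in B2B), and the number of reads behind them is unknown. Of the 16 lists, 4 stop part of the way through the genome: H3K27ac in A549 covers chromosomes 1 to 12 and 53 of the genes, Med1 in both lines chromosomes 1 to 14 and 56 genes, and pol II in A549 chromosomes 1 to 19 and 78 genes. Genes on other chromosomes were not scored in those lists. A gene was called for a target if the list had a peak no further than 1 kb from one of its annotated transcript starts, and its fold enrichment is the highest one deposited for such a peak, that is, signal over the background of its own list. Folds were ranked only within a list, and a percentile gives the rank of a gene among all protein-coding genes with a peak in that list. Wilson 95% intervals of shares cover counting error only. For orientation, H3K4me3 marked 4 of 6 epithelial genes (KRT8, KRT18, EPCAM and CDH1, but neither KRT19 nor CLDN7) and 4 of 4 mesenchymal genes in both lines, and of 4 blood-cell genes none in A549 and 1 (CD14) in B2B. As the epithelial and mesenchymal calls were the same in both lines, these genes do not tell the lines apart. Of the subunit genes, 50 have annotated pseudogenes by symbol, 17 for COX6C and 12 each for NDUFA5 and NDUFB4, and how reads were divided between near-identical copies is not known.

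Many promoters of the subunit genes carried the letters of known regulators. RefSeq promoters (GRCh38.p14, from 250 bases before to 50 bases after the start) were available for 70 of the 89 genes and for 15345 of all protein-coding genes, and 6 short motifs were searched on both strands. A single promoter was used per gene, which is not always the start in use. For NDUFA5 (chr7:123601622-123601801) and COX7A2 (chr6:75250269-75250448) it lies away from the main (MANE) transcript starts at bases 123557818 and 75243801. The letters counted for these genes are therefore not those under their Jun peaks. The stretches printed here, from 150 bases before the start to 30 bases after it and 5′ to 3′ on the strand of the gene, show how the matches to NRF1 (GCGCANGCG), ETS (CCGGAAG) and YY1 (AANATGGCG) lie around the start, with matches in capitals. The SDHA stretch ends just before the start.
SDHA (chr5:218170-218319, plus strand): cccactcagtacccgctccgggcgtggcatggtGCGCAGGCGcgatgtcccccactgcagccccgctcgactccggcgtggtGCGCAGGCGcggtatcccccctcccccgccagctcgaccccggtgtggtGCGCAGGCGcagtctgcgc
SDHB (chr1:17054003-17054182, minus strand): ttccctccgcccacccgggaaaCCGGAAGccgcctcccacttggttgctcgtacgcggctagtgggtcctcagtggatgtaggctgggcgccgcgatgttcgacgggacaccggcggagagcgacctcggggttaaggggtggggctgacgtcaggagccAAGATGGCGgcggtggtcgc
NDUFS6 (chr5:1801257-1801436, plus strand): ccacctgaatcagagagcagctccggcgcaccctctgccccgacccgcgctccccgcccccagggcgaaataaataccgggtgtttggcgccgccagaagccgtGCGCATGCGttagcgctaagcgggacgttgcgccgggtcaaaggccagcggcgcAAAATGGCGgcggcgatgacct
COX6A1 (chr12:120437963-120438142, plus strand): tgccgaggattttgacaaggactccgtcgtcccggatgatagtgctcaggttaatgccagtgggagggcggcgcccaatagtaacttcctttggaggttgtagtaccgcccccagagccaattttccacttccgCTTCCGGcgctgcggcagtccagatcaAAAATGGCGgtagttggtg
ATP5F1C (chr10:7788027-7788206, plus strand): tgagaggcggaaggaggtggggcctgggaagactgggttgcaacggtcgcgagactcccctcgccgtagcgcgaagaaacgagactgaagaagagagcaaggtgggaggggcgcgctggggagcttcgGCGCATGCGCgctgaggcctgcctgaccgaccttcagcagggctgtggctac
ATP5ME (chr4:674247-674426, minus strand): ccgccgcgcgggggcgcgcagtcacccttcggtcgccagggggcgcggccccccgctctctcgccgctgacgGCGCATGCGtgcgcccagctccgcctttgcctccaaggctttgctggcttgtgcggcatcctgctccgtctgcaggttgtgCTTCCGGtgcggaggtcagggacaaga

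The NRF1 letters occurred in 23 of 70 subunit promoters (32.9%, interval 23 to 44.5), against 11.1% of all promoters and 15.8% of the 9639 promoters of genes with H3K4me3 in both lines. The YY1 letters occurred in 16 (22.9%, interval 14.6 to 34.0), against 4.91% and 7.35%. The ETS letters were found in 20 (28.6%, interval 19.3 to 40.1), against 14.4% of all promoters and 20.5% of the marked ones, which lies inside that interval. At least 1 of the 3 motifs stood in 43 of 70 subunit promoters (61.4%, interval 49.7 to 72.0), compared with 26.3% of all and 37.3% of marked promoters. Other housekeeping groups lay inside that interval. The share was 69.6% for mitochondrial and 54.8% for cytosolic ribosomal protein genes, 53.5% for assembly factor genes and 50% for proteasome genes. The AP-1 letters TGANTCA occurred in 5.71% of subunit promoters, against 5.74% of all and 4.16% of marked ones. The SP1 letters GGGCGG occurred in 60% (interval 48.3 to 70.7), against 59.2% of all and 71.6% of marked promoters, which lies above that interval. The CRE letters TGACGTCA, which members of the AP-1 and CREB families can bind, occurred in 5 promoters (7.14%, interval 3.09 to 15.7; ATP5MC1, ATP5ME, NDUFA10, NDUFB2 and SDHB). They occurred in 2.64% of all promoters and in 3.49% of marked ones, which lies inside that interval.

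The 3 motifs differed in place as well as in number. The 16 YY1 matches had their median 15 bases after the start, and in SDHB, NDUFS6 and COX6A1 the match begins between 8 and 11 bases after it. The 38 NRF1 matches had their median 54.5 bases before the start and the 25 ETS matches 46 bases before it. The NRF1 motif is nearly palindromic, so that 1 site can be counted on both strands, as in ATP5F1C. The SDHA promoter, which drives the flavoprotein that oxidises succinate, holds 4 NRF1 matches at 166, 117, 68 and 19 bases before the start, each 49 bases from the one before, and the nearest 3 are in the printed stretch. Genes of mitochondrial ribosomal proteins, which serve the same organelle, had these letters in other proportions: NRF1 in 18.8%, ETS in 42.0% and YY1 in 26.1% of 69 promoters.

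**Figure D1:**
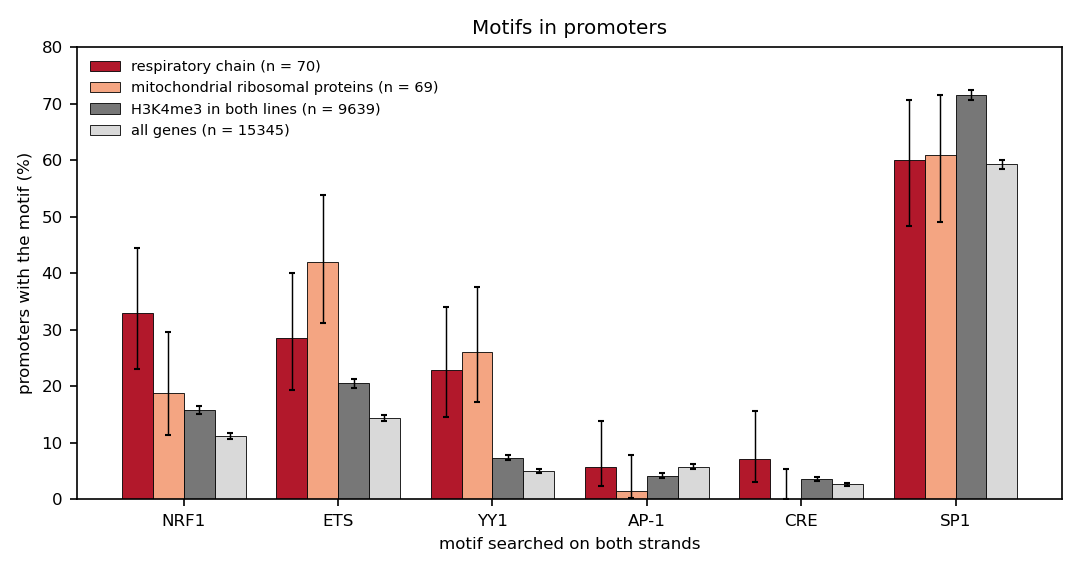
Share of promoters (percent, vertical axis) with each of 6 motifs (horizontal axis), as bars for 70 respiratory chain genes, 69 mitochondrial ribosomal protein genes, 9639 genes with H3K4me3 in both lines and all 15345 genes, with Wilson 95% intervals as whiskers. The subunit genes reach 32.9% for NRF1 and 22.9% for YY1, against 11.1% and 4.91% of all promoters, whereas AP-1 stands at 5.71% against 5.74%.

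Nearly every subunit gene carried an active promoter in both lines. H3K4me3 was called at the same 82 of 89 genes in A549 and in B2B (92.1%, interval 84.6 to 96.1), against 72% of all genes in A549 and 61.5% in B2B. H3K27ac was present at 51 of 53 scored genes in A549 (96.2%, interval 87.2 to 99.0; all genes 71.6%) and at 82 of 89 in B2B (92.1%; all genes 63.2%). Every marked gene that could be scored also had H3K27ac, 51 of 51 in A549 and 82 of 82 in B2B, beside 96.3% and 95.8% of all genes with H3K4me3. Pol II was called at 73 of 78 genes in A549 (93.6%, interval 85.9 to 97.2; all genes 67.6%) and at 69 of 89 in B2B (77.5%, interval 67.8 to 85.0; all genes 49.2%). Against genes with H3K4me3 in the same line, of which 90.8% in A549 and 78.5% in B2B had pol II, the marked subunit genes had it at 73 of 73 and at 69 of 82 (84.1%). Med1 was called at 45 of 56 in A549 (80.4%, interval 68.2 to 88.7; all genes 53.2%) and at 50 of 56 in B2B (89.3%, interval 78.5 to 95; all genes 59.5%), and of marked genes in B2B at 50 of 53 subunit genes (94.3%) against 90.2%.

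**Figure D2:**
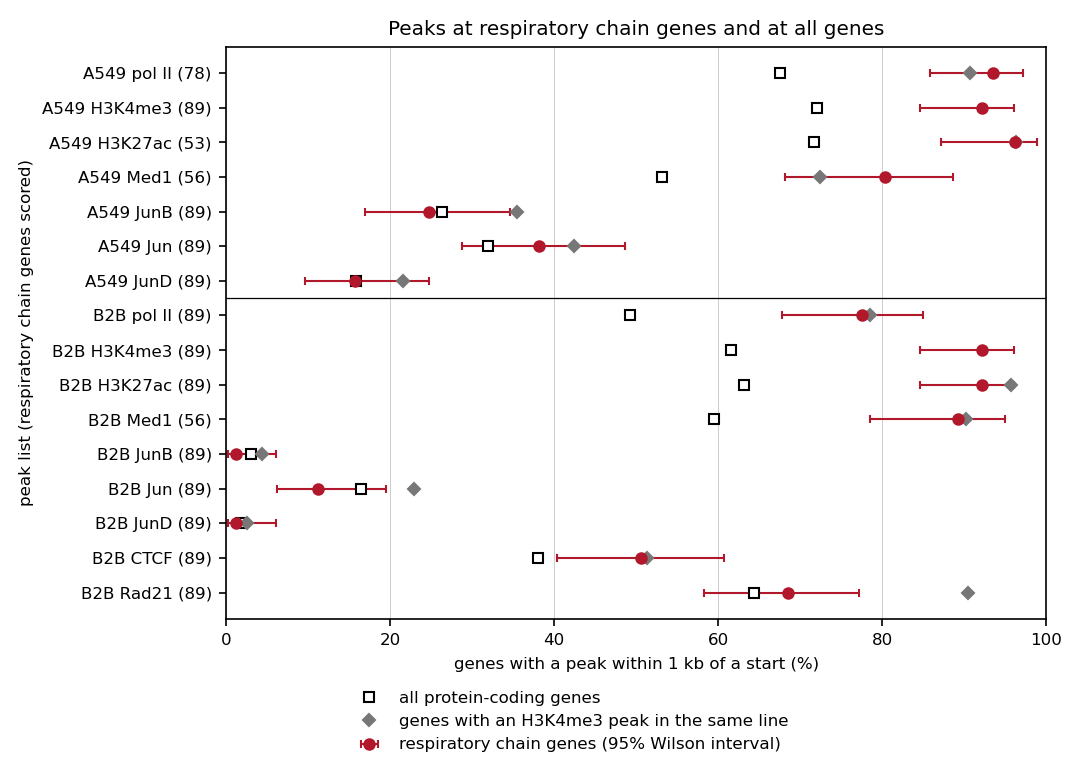
Share of genes (percent, horizontal axis) with a peak within 1 kb of a start in each list (vertical axis, A549 above and B2B under the line, with the number of subunit genes scored), for subunit genes (red circles, Wilson 95% intervals), all protein-coding genes (open squares) and genes with H3K4me3 in the same line (grey diamonds). H3K4me3 stands at 92.1% of subunit genes in both lines, above all genes at 72% and 61.5%, while JunB in B2B stands at 1.12%.

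The strength of the peaks was described within each list. In B2B the median H3K4me3 fold of the subunit genes was 6.19, against 3.76 over all marked genes, and their median percentile was 77.1. H3K27ac (median 9.04 against 6.96, percentile 74.9) and pol II (5.89 against 4.70, percentile 66.1) ranked above the middle of the B2B lists too. In A549 the subunit genes ranked near the middle for pol II (37.8 against 44.5, percentile 41.9) and H3K27ac (65.1 against 61.7, percentile 53.9), and at percentile 65.1 for H3K4me3 (38.7 against 34.9). Med1 folds lay below the middle in both lines (7.72 against 9.28 in A549, 7.35 against 8.70 in B2B). Pol II and Med1 peaks in A549 were also narrow, with a median pol II width of 914 bp in A549 against 1166 bp for all genes, a Med1 width of 398 bp against 587 bp, and a pol II summit 24 bases from the nearest start against 40.

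The strongest members came from several complexes. In A549 the highest pol II folds belonged to UQCRFS1, the Rieske iron-sulfur protein of complex III (115), to UQCRC2, a core protein of the same complex (92.8), and to the complex I subunit NDUFS5 (91.6). In B2B they belonged to the complex IV subunits COX7B (41.0) and COX7A2 (30.2) and again to UQCRC2 (18.9), the only gene among the first 3 in both lists. COX7B, on the X chromosome, could not be scored for pol II in A549. H3K4me3 was highest at NDUFA5 (62.1), ATP5F1C, the rotor subunit gamma of ATP synthase (58.5), and NDUFB8 (57.4) in A549, and at NDUFA4 (30.3), UQCRC2 (21.9) and NDUFA5 (21.2) in B2B. In B2B, UQCRFS1 had a pol II fold of 4.15 (percentile 40.0) and an H3K4me3 fold of 2.55 (percentile 21.1). The ranks come from lists of different length and coverage, and a gene picked as the highest of 1 list is likely to rank lower in another, so that no change between lines is read from them.

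**Figure D3:**
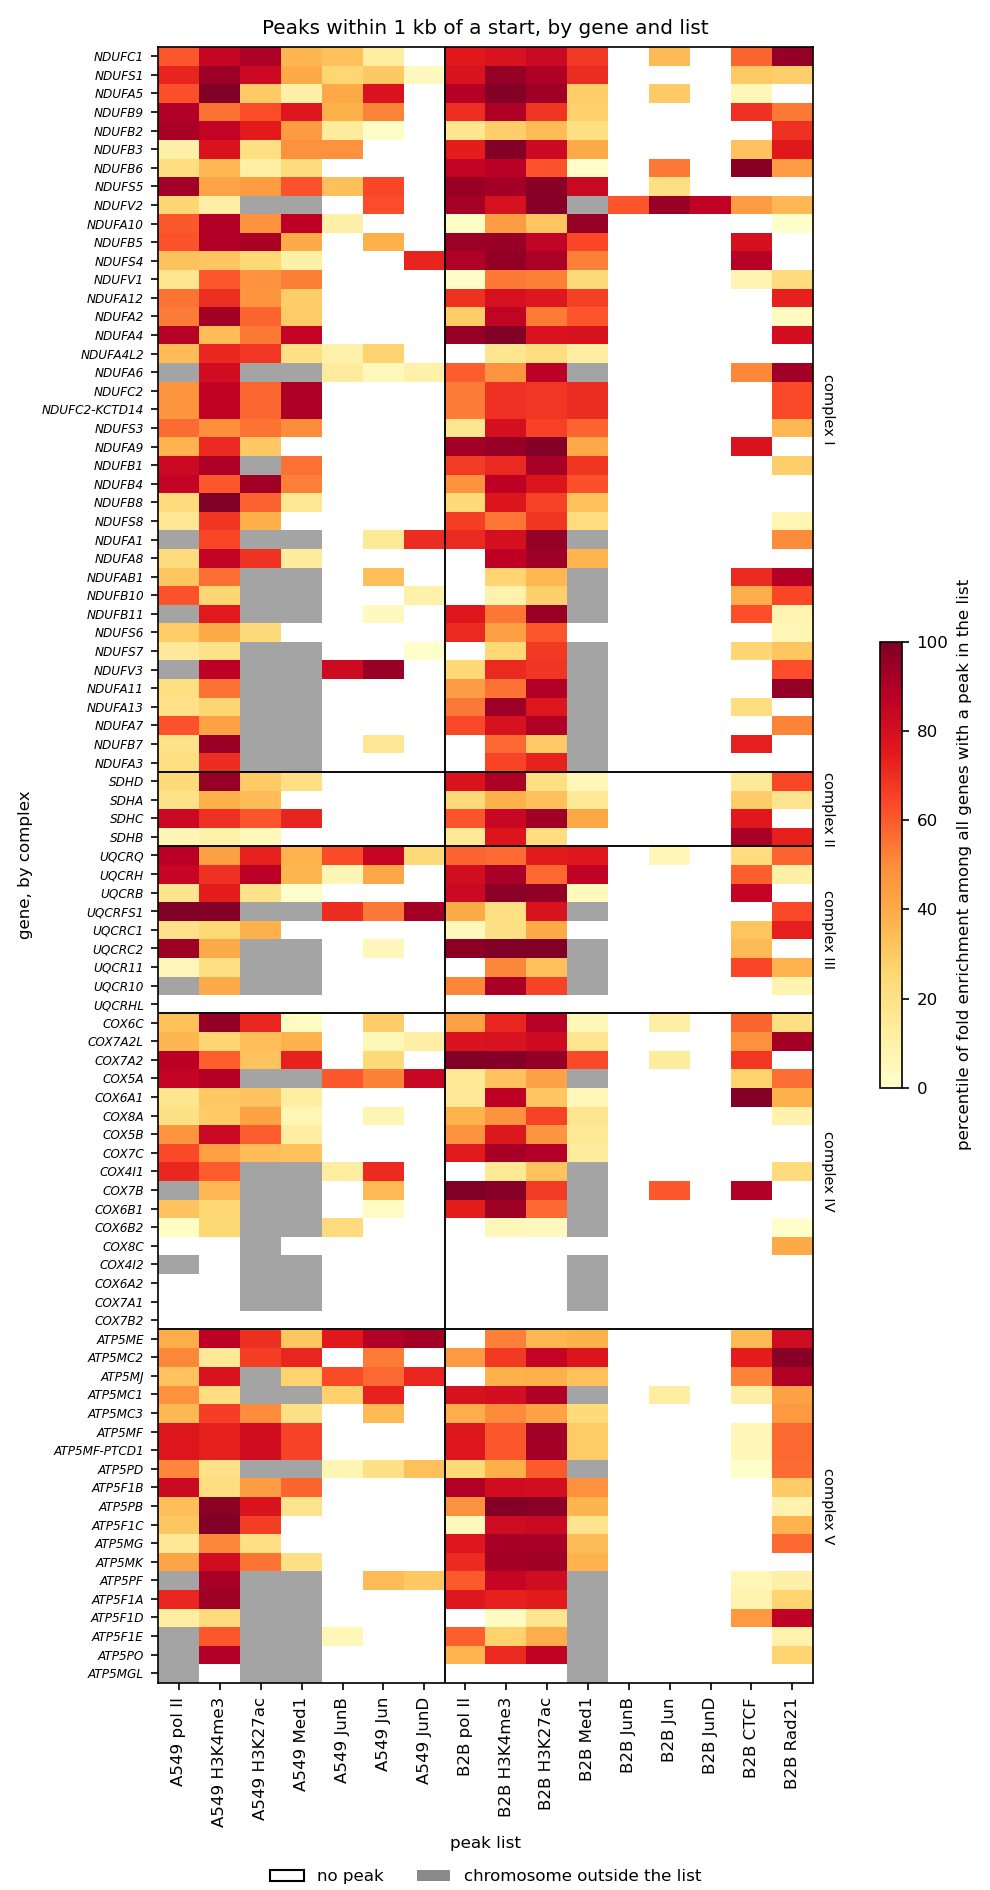
Heat map of the subunit genes reported by name (vertical axis, by complex) in the 16 lists (horizontal axis), coloured by the percentile of the gene's fold among all genes with a peak in that list, with white for no peak and grey for chromosomes a list does not cover. H3K4me3 is filled in both lines for all but 7 of the genes shown, those 7 are white or grey in nearly every list, and the JunB and JunD columns of B2B hold a single gene, NDUFV2.

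The 7 genes without H3K4me3 were the same in both lines: UQCRHL of complex III, COX4I2, COX6A2, COX7A1, COX7B2 and COX8C of complex IV, and ATP5MGL of complex V. All 7 are on a list of 9 isoforms and gene copies that are not in general use, several of them known from muscle, lung or testis. In the lists that cover them, 6 of the 7 had no peak of any target, and COX8C had only a Rad21 peak of 5.60-fold. Outside the list of 9, H3K4me3 marked 80 of 80 genes in both lines, H3K27ac 50 of 50 in A549 and 80 of 80 in B2B, and pol II 71 of 71 in A549 and 69 of 80 in B2B (86.2%). The list of 9 was drawn up with earlier results of these data known, so that these shares are not an independent result.

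The isoform pairs show the same division gene by gene. For COX4, a regulatory subunit of complex IV, COX4I1 had H3K4me3 folds of 37.4 in A549 and 2.36 in B2B, and COX4I2 had no peak. COX6A1 (29.1 and 8.40) stood beside an uncalled COX6A2, COX7A2 (37.2 and 19.3) beside COX7A1, COX7B (31.0 and 16.9) beside COX7B2, COX8A (28.9 and 3.65) beside COX8C, and UQCRH, the hinge protein of complex III (39.8 and 10.3), beside UQCRHL. In the remaining pairs both genes were marked. The testis-associated isoform COX6B2 had an H3K4me3 fold of 27.2 in A549, next to 27.1 for its partner COX6B1, but 2.004 in B2B (percentile 5.29), where COX6B1 had 11.4, and its pol II fold in A549 was the lowest of all subunit genes (4.90, percentile 1.75). NDUFA4L2, a hypoxia-inducible paralogue of NDUFA4, had 40.5 in A549 (percentile 71.8) and 2.44 in B2B (percentile 17.5). Its H3K4me3 peak in A549 lay at another transcript start, at base 57240692 of chromosome 12. It was further than 1 kb from the main (MANE) start at base 57237104. NDUFA4 had 30.3 in each list, which was percentile 33.7 in A549 and percentile 99.9 in B2B. Folds of different lists are not on the same scale. Neither COX6B2 nor NDUFA4L2 had a pol II peak in B2B.

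Calls in a single line at subunit genes were mainly of pol II and the Jun family. For pol II, JunB and JunD, the shares in A549 alone were near those of all genes. The lists differ in length, with 45938 peaks in A549 and 25234 in B2B for pol II, and 28068 and 8563 for JunB. For JunD there were 9639 and 8597 peaks, and for Jun 35602 in A549 and 45047 in B2B. H3K4me3 was shared by 82 of 89 genes (all genes 59.7%) and H3K27ac by 51 of 53 (all genes 60.8%), with no subunit gene called in a single line. Over all genes, H3K4me3 was in A549 alone at 12.3% and in B2B alone at 1.82%, and H3K27ac at 10.8% and 1.96%. Pol II was found at 60 of 78 genes in both lines (all genes 48.5%), at 13 in A549 alone (16.7%; all genes 19%) and at none in B2B alone (all genes 1.66%). Med1 was found at 45 of 56 in both lines (all genes 49.5%), at none in A549 alone (3.68%) and at 5 in B2B alone (8.93%; all genes 9.97%). Among marked genes in A549, Med1 was called at 45 of 53 subunit genes (84.9%, interval 72.9 to 92.1), against 72.4% of all marked genes. The 8 marked subunit genes without it there were NDUFA9, NDUFS6, NDUFS8, SDHA, SDHB, UQCRC1, ATP5F1C and ATP5MG, and NDUFS6, SDHB and UQCRC1 lacked it in B2B too.

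The 13 marked genes without pol II in B2B were ATP5F1D, ATP5ME, ATP5MJ, COX4I1, COX6B2, NDUFA3, NDUFA4L2, NDUFA8, NDUFAB1, NDUFB10, NDUFB7, NDUFS7 and UQCR11. On chromosome 19 lay 6 of these 13 and 5 of the 69 with pol II. The share over all genes was not computed, so that no link to that chromosome is read from these counts. All 13 had pol II in A549, at a median percentile of 23.2 (range 1.75 to 71.8), against 48.4 for the 60 others that were scored. Their H3K4me3 in B2B had a median percentile of 26.4 (range 2.95 to 87.1), against 79.1 for the 69 genes with pol II. The A549 pol II peak counted for NDUFB10 (percentile 61.4) was 6562 bp wide, with its summit 5237 bases downstream of the nearest start. With summits within 1 kb, pol II in A549 was called at 72 of 78 subunit genes. COX4I1 was the highest of the 13 for pol II in A549 (63.4, percentile 71.8), and NDUFA8 the highest for H3K4me3 in B2B (8.41, percentile 87.1). The median GC content of their promoters was 67.7% (n = 11) against 59.8% (n = 56) for genes with pol II, and over all genes with H3K4me3 in B2B it was 67.3% against 64.7%. The part of GC content and of list strength in these calls was not tested. NDUFA3, an accessory subunit of complex I, appeared in 4 lists, the fewest of that complex: pol II (21.1) and H3K4me3 (40.1) in A549, and H3K4me3 (4.77) and H3K27ac (8.81) in B2B.

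**Figure D4:**
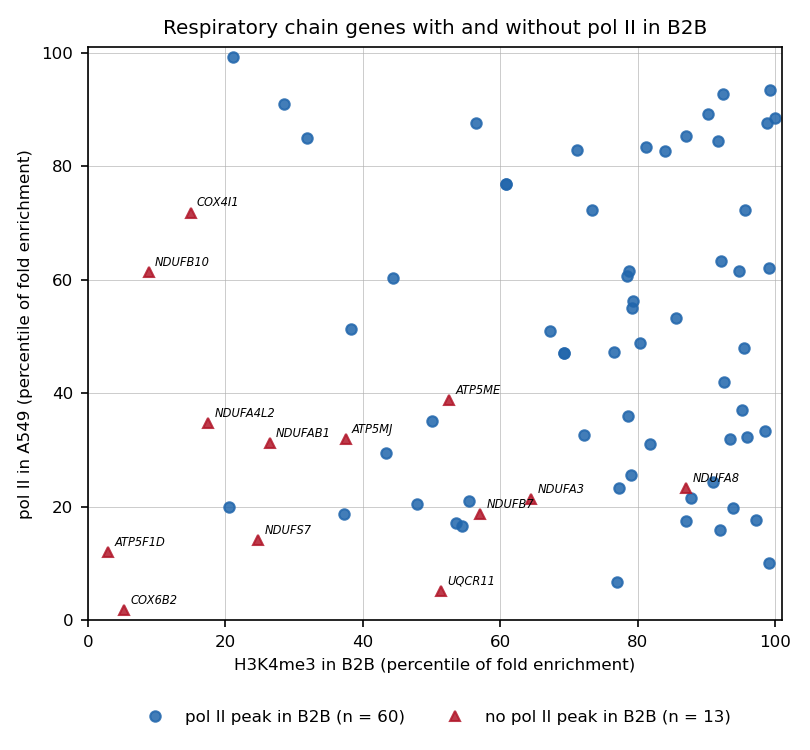
Percentile of the pol II fold in A549 (vertical axis) against that of the H3K4me3 fold in B2B (horizontal axis) for the 73 marked subunit genes scored in both, with 13 genes without a pol II peak in B2B as red triangles and 60 with one as blue circles. The triangles lie mostly low on both axes, with medians of 23.2 for pol II and 26.4 for H3K4me3, and the groups overlap.

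Jun-family peaks in A549 were called at subunit genes about as often as at other genes. In A549 a JunB peak was called at 22 of 89 (24.7%, interval 16.9 to 34.6), against 26.3% of all genes and 35.5% of genes with H3K4me3. Jun was called at 34 (38.2%, interval 28.8 to 48.6; 31.9% and 42.4%) and JunD at 14 (15.7%, interval 9.61 to 24.7; 15.8% and 21.5%). With peaks of a −log10 q of at least 5 only, JunD was left at 9 genes (10.1%; all genes 12.4%). In B2B, Jun was called at 10 genes (11.2%, interval 6.22 to 19.5; 16.5% of all and 22.9% of marked genes), JunB at 1 (1.12%; 3.02% and 4.3%) and JunD at 1 (1.12%; 1.75% and 2.52%). Among marked genes alone, JunB was at 22 of 82 subunit genes in A549 (26.8%, interval 18.4 to 37.3), Jun at 34 (41.5%, interval 31.4 to 52.3) and JunD at 14 (17.1%, interval 10.5 to 26.6), so that the shares of all marked genes lay inside each interval. For Jun in B2B (10 of 82, 12.2%, interval 6.76 to 21.0) the share of all marked genes, 22.9%, lay above it. At least 1 of the 3 proteins was called at 41 genes in A549 (46.1%; all genes 37.7%, marked 50.2%) and at 10 in B2B (11.2%; all genes 16.5%, marked 22.9%).

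The length of the lists bears on the JunB counts. When both JunB lists were cut to the 8563 peaks of the shorter one, JunB in A549 was left at 1 subunit gene, NDUFV3 (1.12%), against 6.82% of all genes. The peaks at subunit genes were weak: their median percentile in A549 was 30.2 for JunB (5.11-fold against 6.13), 34.8 for Jun (7.02 against 8.67) and 31.5 for JunD (4.80 against 5.33), and 25.4 for Jun in B2B (5.04 against 7.39). JunD summits in A549 lay downstream of the nearest start at 1 of the 14 genes (7.14%), against 28.7% of all genes with a JunD peak. Jun summits lay downstream at 26.5% of the subunit genes and 29.8% of all.

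All 3 Jun-family proteins had a peak within 1 kb of a start at 8 subunit genes in A549 (8.99%, interval 4.63 to 16.7; all genes 11.6%, marked 16%), and at 0 when the lists were cut to equal length (all genes 4.69%). The 3 summits lay within 100 bp of each other at 5 of them (5.62% of the 89), and at NDUFA6 the Jun summits lay 326 and 675 bases downstream of a start and those of JunB and JunD upstream. The 8 were ATP5ME, ATP5MJ and ATP5PD of ATP synthase, COX5A of complex IV, NDUFA6 and NDUFS1 of complex I, and UQCRFS1 and UQCRQ of complex III. ATP5ME, subunit e of the membrane part of ATP synthase, had a Jun fold of 24.1, a JunB fold of 9.09 and a JunD fold of 8.80, with the 3 summits 76, 83 and 63 bases before a start. UQCRFS1 had 9.18, 8.19 and 8.84 in the same order, and its JunD peak was at percentile 92.4. COX5A, a nuclear subunit on the matrix side of complex IV, had 8.97, 6.89 and 7.23. UQCRQ, a small subunit of complex III, had 19.0, 7.16 and 4.56, and a B2B Jun peak of 3.31. UQCRQ was found in 14 of 16 lists, the most of any subunit gene, although genes on later chromosomes were scored in as few as 12.

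By complex, Jun in A549 was called at 15 of 40 genes of complex I, 4 of 9 of complex III, 8 of 17 of complex IV and 7 of 19 of complex V, but at 0 of 4 of complex II, where so few genes leave an interval of 0 to 49%. It was called at 31.9% of all genes and 42.4% of marked ones. No peak of any Jun-family protein was called at the 4 SDH genes in either line, as at 47 of the 89 subunit genes (52.8%) and 58.6% of all genes. The SDH genes had H3K4me3 and pol II in both: SDHA 31.5 and 3.15 for H3K4me3 and 19.2 and 3.35 for pol II in A549 and B2B. SDHB, the iron-sulfur subunit that takes electrons from SDHA, had 16.3 and 6.18 for H3K4me3 and 8.33 and 2.92 for pol II. Its H3K27ac fold in A549 (8.03) and its H3K4me3 fold there were the lowest of any called subunit gene. The membrane anchors were stronger, with H3K4me3 of 39.8 and 7.57 and pol II of 75.5 and 5.43 at SDHC, and 49.5 and 9.85, and 23.5 and 7.40, at SDHD. CTCF was called at all 4 in B2B, at 4.79-fold for SDHA, 24.0 for SDHB, 12.7 for SDHC and 3.58 for SDHD. The SDHB peak (chr1:17046098-17046398) lies inside the gene, which starts at 17054032, and was counted through the start of another transcript. SDHD was called in 10 lists and SDHB in 8.

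The Jun peaks were also compared between the lines. Jun was found at 9 subunit genes in both lines (all genes 12.1%), at 25 in A549 alone (28.1%; all genes 19.7%) and at 1 in B2B alone (1.12%; all genes 4.32%). JunB was in A549 alone at 22 genes (all genes 23.8%) and JunD at 14 (all genes 14.9%), both were in B2B alone at 1 gene, NDUFV2 (all genes 0.534% and 0.854%), and neither was shared between lines at any subunit gene (0 of 89; all genes 2.49% and 0.894%). The 9 genes with a Jun-family peak in both lines were ATP5MC1, COX6C, COX7A2, COX7B, NDUFA5, NDUFC1, NDUFS5, NDUFV2 and UQCRQ. COX7B had Jun folds of 7.03 in A549 and 8.86 in B2B, with both summits on the same base 141 bases before a start. NDUFA5 had 15.8 in A549, with JunB at 5.58, and 5.36 in B2B, within 2 bases of a start in each list. The only gene with Jun in B2B alone was NDUFB6, where a peak of 8.02 lay 713 bases downstream of the start, in intron 1, beside a CTCF peak of 40.1 whose summit lay at 702 bases.

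**Figure D5:**
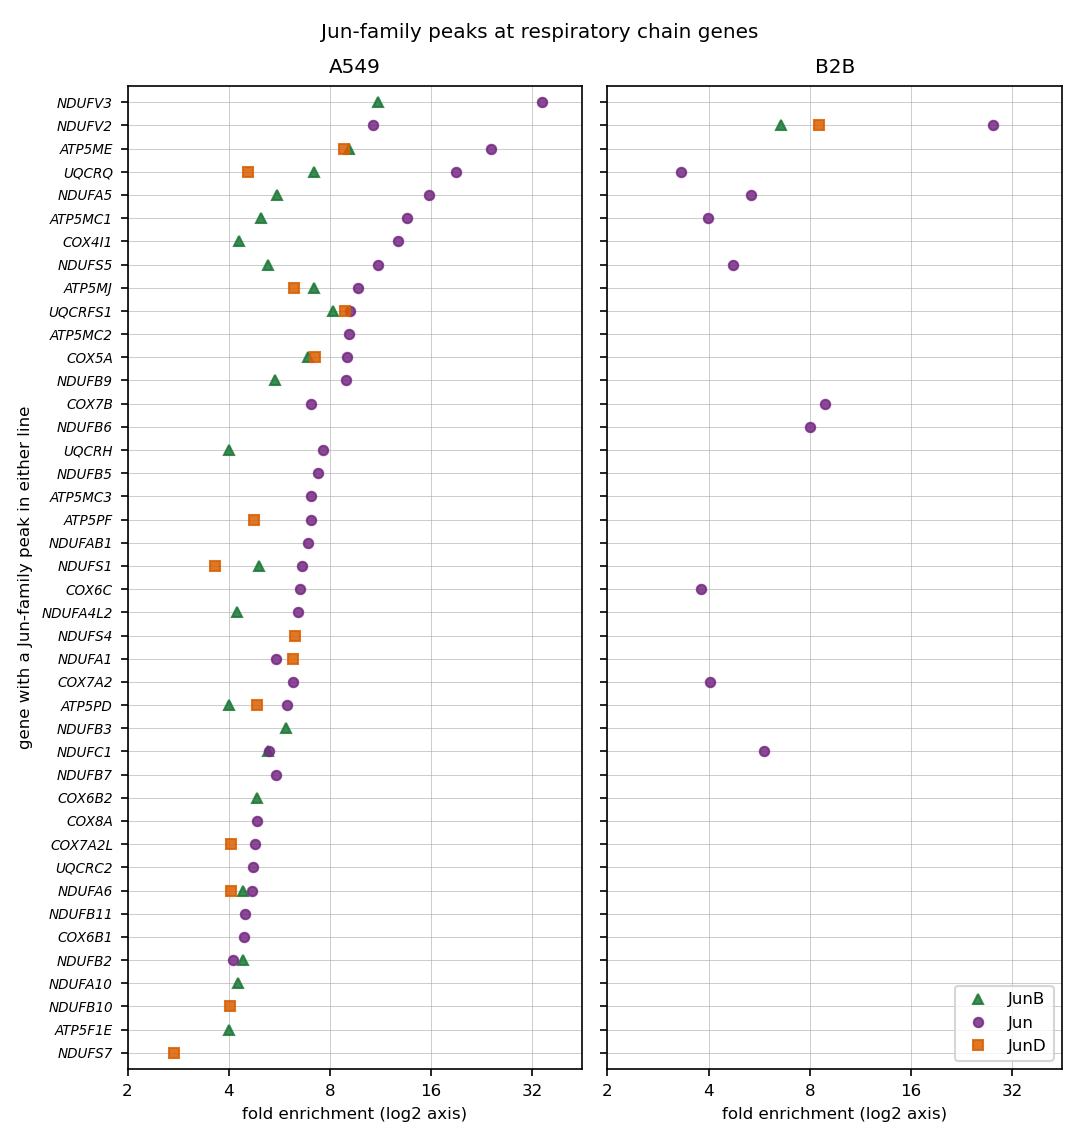
Highest fold enrichment (horizontal log2 axis) of JunB (triangles), Jun (circles) and JunD (squares) within 1 kb of a start at each subunit gene with a Jun-family peak (vertical axis), with A549 in the left and B2B in the right panel. NDUFV3 (34.1) leads the Jun peaks of A549 and NDUFV2 (28.0) those of B2B, where only 10 genes have a point.

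Among the subunit genes, the highest Jun fold was counted for NDUFV3 in A549 and for NDUFV2 in B2B. NDUFV2 encodes an iron-sulfur protein of the module that takes electrons from NADH, and NDUFV3 an accessory subunit of the same module. Their summits are printed with 50 bases to each side, on the plus strand of hg38, next to that of COX7B, and capitals mark the AP-1 letters, which occur only in NDUFV2.
NDUFV2 (chr18:9117381-9117481): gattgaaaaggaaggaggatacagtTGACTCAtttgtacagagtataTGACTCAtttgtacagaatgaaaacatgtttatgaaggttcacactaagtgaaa
NDUFV3 (chr21:42892417-42892517): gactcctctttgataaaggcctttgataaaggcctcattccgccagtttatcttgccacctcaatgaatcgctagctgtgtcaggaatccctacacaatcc
COX7B (chrX:77899249-77899349): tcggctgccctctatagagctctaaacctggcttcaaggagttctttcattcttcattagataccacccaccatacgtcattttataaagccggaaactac

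NDUFV2 was the only subunit gene with all 3 Jun-family proteins in B2B (1.12%; all genes 1.43%): Jun 28.0, JunD 8.51 and JunB 6.58. In A549 the same site had Jun alone, at 10.8. The site lies in intron 1 of the main (MANE) transcript of NDUFV2, 14732 bases downstream of its start at base 9102699 of chromosome 18, and it was counted because a retained-intron transcript of the gene starts 44 bases from the summit. With the gene start alone NDUFV2 lost its JunB and JunD calls, so that neither was left at any subunit gene in B2B. The stretch holds 2 copies of the AP-1 letters, and a further copy lies under a second B2B Jun peak of 6.79-fold. At NDUFV3 the highest summit lay 801 bases before a start (Jun 34.1, JunB 11.2 nearby), and 2 further Jun peaks were called, of 9.40 and 7.18. NDUFV3 had no Jun-family peak in B2B.

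AP-1 letters were rare under the Jun-family summits of subunit genes. Within 50 bp of a summit in A549 they were found at 2 of 24 JunB peaks (8.33%), 2 of 39 Jun peaks (5.13%) and 0 of 14 JunD peaks. At the starts of all protein-coding genes the shares were 29.9%, 27.3% and 17.8%, and further from starts 59.2%, 56.4% and 50.2%. In B2B, 3 of 11 Jun peaks had them (27.3%), against 46% at all starts and 48.3% further away. Peaks of several proteins at 1 gene share their sequence and are not independent. The ETS letters stood under 6 of 39 Jun peaks in A549 (15.4%, against 5.90% at all starts). The CRE letters stood under 3 of these 39 Jun peaks (7.69%, interval 2.65 to 20.3). At all starts they stood under 409 of 7436 Jun peaks in A549, a share inside that interval. Shares by gene were not computed over all genes. Counted by gene, AP-1 letters lay under a summit at 3 of 41 subunit genes in A549 (NDUFB3, NDUFC1 and NDUFV2, the last 2 in introns of their main transcripts) and 2 of 10 in B2B (NDUFC1 and NDUFV2), and CRE letters at 3 of 41 in A549 (ATP5ME, COX4I1 and NDUFB2). These sites are printed with 10 bases to each side, on the plus strand of hg38, with the AP-1 or CRE letters in capitals.
NDUFB3 (chr2:201071907-201071933): agtctctaccTGATTCAggaatctcta
NDUFC1 (chr4:139300790-139300816): cgctccaaggTGACTCAtaaggtcggt
ATP5ME (chr4:674417-674444): cgcgcggcggTGACGTCAcgtgaggcgc
COX4I1 (chr16:85800222-85800249): cgttcagcccTGACGTCAtgcttgttta
NDUFB2 (chr7:140696645-140696672): agcgactctgTGACGTCAcgggaggcgc

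The promoter letters were set beside the Jun-family calls for genes with H3K4me3 in A549. Of the subunit promoters with NRF1 letters, 7 of 22 (31.8%) had a Jun-family peak in A549, against 28 of 45 (62.2%) without them, whereas over all genes the shares were 54.1% and 50.8%. This contrast was noticed in the data and was not tested. Of the 5 promoters with CRE letters 4 had such a peak, against 31 of 62 without (all genes 85.2% and 50.1%), and SDHB was the exception. Of 3 marked promoters with AP-1 letters, 1 (NDUFB3) had a Jun-family peak (all genes with the letters 68.6%).

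In B2B, CTCF was called at 45 subunit genes (50.6%, interval 40.4 to 60.7), against 38% of all genes and 51.3% of marked genes. Rad21, a subunit of the cohesin ring that CTCF is known to hold in place, was called at 61 (68.5%, interval 58.3 to 77.2; all genes 64.4%). Of the marked subunit genes 60 of 82 had Rad21 (73.2%, interval 62.7 to 81.6), while of all marked genes 90.4% did. Both proteins were found at 33 genes (37.1%; all genes 33.3%, marked 47.1%), Rad21 alone at 28 (31.5%; 31.1% and 43.4%), and CTCF alone at 12 (13.5%; 4.78% and 4.20%). They included SDHC, UQCRC2, COX7A2, COX7B and NDUFA5. The highest CTCF folds were 49.6 at COX6A1 (chr12:120439695-120440099, inside the gene and 118 bases before the start of another of its transcripts), 40.1 at NDUFB6, 24.0 at SDHB and 21.9 at COX7B. The highest Rad21 folds were 22.3 at ATP5MC2, a gene for the c-ring of ATP synthase, 17.9 at NDUFA11 and 17.4 at NDUFC1.

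Many subunit genes share their start with a neighbour. A start of another protein-coding gene on the opposite strand lay within 1 kb at 35 of 89 (39.3%, interval 29.8 to 49.7), against 17.7% of all genes, and at 42.7% of the 82 marked genes against 26.2% of all marked genes. Counting both strands, 42 of 89 (47.2%) had a neighbouring start, against 23.3% of all. A peak at such a start cannot be given to 1 of the genes. In A549, Jun was called at 15 of the 42 with a neighbouring start and at 19 of the 40 marked genes without one, and pol II at 36 of 36 and 37 of 37. The subunit genes had a median of 6 annotated starts, against 5 over all genes, and the marked ones 6.5 against 7.

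Compared with other housekeeping groups, the subunit genes had Jun-family peaks in A549 about as often as mitochondrial ribosomal protein genes. Jun was called at 38.2% of subunit genes, 39.7% of 78 mitochondrial ribosomal protein genes, 54.5% of 77 cytosolic ribosomal protein genes, 64.1% of 39 proteasome genes and 61.2% of 49 assembly factor genes, whose products build the complexes but are not part of them. For JunB the shares were 24.7%, 29.5%, 50.6%, 51.3% and 42.9% in the same order. Pol II in B2B was at 77.5%, 88.5%, 100%, 94.9% and 83.7%. These are descriptions of single lists, with no test between the groups.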

How the data were processed

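Processed peak lists of ChIP-seq in A549 and B2B cells were used. Reads had been aligned to hg38 by the authors, per the labels and the study's methods, with Bowtie2 2.4.4 and handled with SAMtools 1.13, duplicates were removed, the 2 replicates of each group were merged, and peaks were called with MACS2 2.2.7.1. The options of the caller and its control are not given in the sources used here. For each peak the authors deposited a score, a fold enrichment (the ratio of the summit to the local background), the −log10 of a p-value and of a q-value, and positions. The lowest −log10 q was 2. The depth behind the lists is unknown, and the intervals reflect only the number of genes scored, 53 to 89.

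Starts of protein-coding genes were taken from GENCODE release 44, and promoters from RefSeq (GRCh38.p14). Peaks within 1 kb of any start were counted with Python 3.11.15, NumPy 2.4.6, pandas 2.3.3 and pysam 0.24.0, and shares received Wilson 95% intervals (SciPy 1.17.1). Matplotlib 3.10.9 was used for plots. Letters at summits were searched within 50 bp. The window queries were tested on simulated data, where 8000 of 8000 gave the known answer.

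With 1 pooled list per target and line, no test was run. The genes and lists were chosen with earlier results of these data known. Genes named in the text were the 3 highest folds in the Jun-family, pol II and H3K4me3 lists, genes without H3K4me3, those with all 3 Jun-family proteins in B2B or with a Jun-family peak in B2B alone, 8 isoform pairs, the SDH genes, and those in the most and fewest lists of each complex. Results that need the name of 1 gene are not reported here, although it is counted. Other genes named, and the markers used to check the lines, were picked after their values were seen. Alternatives were a −log10 q of at least 5, a distance of 500 bp, summits in place of peaks, the gene start alone, lists of equal length, genes without a shared start, lists up to their last position, a minimum overlap of 1 bp, and other windows for motifs.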

Additional observations from a re-analysis of the deposited data

Results flagged for a closer look

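The mitochondrial genome, which encodes 13 further subunits of the respiratory chain, lies outside the nuclear genes compared here, and it held peaks in several lists. More peaks than a count of 3, used as the floor, were found for JunB in A549 (12 peaks, overlapping 11 of the 13 coding genes, highest fold 1.99), JunB in B2B (11 peaks, 8 genes, 2.07), JunD in B2B (11 peaks, 4 genes, 1.87) and CTCF in B2B (20 peaks, 12 genes, 2.27). Jun in A549 had 3 broad peaks over all 13 genes (highest fold 5.49) and JunD in A549 a single peak over all 13 (2.72). H3K4me3 in both lines and H3K27ac and Rad21 in B2B had none there. The 4 lists that stop part of the way through the genome also hold none and may not reach it. No control list was compared, and the source of these peaks was not tested.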

How the results depend on the processing

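Of 114 alternative values for 28 results, 105 stayed within the counting interval of the value reported and 9 did not. With the gene start alone, the share fell outside for H3K27ac in A549 (86.8%, 46 of 53; all genes 65.1%), H3K4me3 in B2B (83.1%, 74 of 89; all genes 55.5%), H3K27ac in B2B (84.3%, 75 of 89; all genes 57.1%), CTCF (39.3%, 35 of 89; all genes 26.2%), and JunB and JunD in B2B (0% each; all genes 0.879% and 0.280%), fewer starts being counted. With lists of equal length, JunB in A549 came to 1.12% (all genes 6.82%), all 3 Jun-family proteins in A549 to 0% (all genes 4.69%), and H3K27ac in B2B, on chromosomes that both lists cover, to 96.2% (51 of 53; all genes 62.8%). A −log10 q of at least 5, a distance of 500 bp, summits within 1 kb, leaving out genes with a shared start, an overlap of 1 bp, lists up to their last position, 100 bp around summits and windows of 600 bases moved none of the results they were applied to beyond the interval, although JunD in A549 fell to 10.1% (9 of 89) at that q and the 3 Jun-family proteins to 5 of 89 with summits within 100 bp. No paired analysis was possible because the replicates were merged before peaks were called, and for the same reason no replicate could be left out.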

Other observations

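Genes around the respiratory chain were called as follows. CYCS, the electron carrier cytochrome c, had JunB, Jun and JunD in A549 and Jun in B2B, with pol II, H3K4me3, H3K27ac and Med1 in both lines. CYC1, a cytochrome subunit of complex III whose symbol lies outside those chosen here, had the same 4 promoter targets and no Jun-family peak in either line.

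Of 15 genes for nuclear regulators of the chain, 11 had Jun in A549 (73.3%, interval 48.0 to 89.1), against 31.9% of all genes and 42.4% of genes with H3K4me3 there. JunB was called at 7 (46.7%, interval 24.8 to 69.9; 26.3% and 35.5%), JunD at 7 (46.7%; 15.8% and 21.5%), and Jun in B2B at 2 (13.3%; 16.5% of all genes). For Jun in A549, proteasome (64.1%), assembly factor (61.2%) and cytosolic ribosomal protein genes (54.5%) lay inside the interval of the regulators. Mitochondrial ribosomal protein genes (39.7%) lay below it. CREB1, ESRRA, SP1, YY1 and GABPB1 had all 3 Jun-family proteins in A549 (all genes 11.6%, marked 16%). TFAM, which packages and transcribes mitochondrial DNA, had Jun and JunD there, NRF1 had Jun alone, and POLRMT, the mitochondrial RNA polymerase, had none. PPARGC1A, a coactivator of mitochondrial biogenesis, had H3K4me3 in both lines and Jun in B2B, and no pol II, H3K27ac or Med1 peak in either line.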
